A study of Bos taurus and other sequences with 9 samples.

Results

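U1 is the small nuclear RNA (snRNA) that pairs with the 5′ splice site of a new transcript and so starts the assembly of the spliceosome on an intron. It works in a particle with proteins of its own and with the ring of Sm proteins that most spliceosomal snRNAs share, and it also protects transcripts from ending too early. Mammalian genomes hold several gene copies of U1 and many more degenerate copies, so that a short read from U1 RNA can match many places in a genome. In serum and culture media there are no nuclei, and U1 is read there as one of the RNAs, or fragments of RNAs, that are carried by extracellular vesicles (EVs) or proteins.

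The U1 loci were the snRNA loci of the deposited table whose names start with RNU1- or with U1 followed by a dot. They numbered 77 of the 1361 small non-coding RNA (ncRNA) loci and of the 419 snRNA loci. By name they fell into 9 gene copies (RNU1-1 to RNU1-9), 12 pseudogene copies whose names end in P, and 56 copies named U1 with a number, for which the names do not say whether the copy is a gene. A suffix that all these names carry in the table is left out here. All 9 gene copies were 164 nt long, the pseudogene copies were 144 to 165 nt and the U1.number copies 126 to 176 nt. On the human build GRCh37, 29 loci lay on chromosome 1, and 19 of these lay between positions 143647014 and 149606079. The others were spread so that 19 chromosomes held at least 1 locus.

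Small ncRNA was sequenced from EV preparations of 9 cell-free media samples to learn how much RNA the medium itself brings to cell culture. FBS was DMEM/F12 with 10% foetal bovine serum, from Sigma in FBS-1 and from Gibco in FBS-2. UC-dFBS was the same 2 sera after ultracentrifugation, UF-dFBS was the same 2 sera after ultrafiltration, taken as the flow-through of the filter, and SBI-dFBS was commercial exosome-depleted serum from System Biosciences in 2 lots, all at 10% in the same basal medium. StemPRO was a defined serum-free medium for mesenchymal stem cells with 1 sample, so that its values have no replicate. In FBS, UC-dFBS and UF-dFBS, sample 1 came from Sigma serum and sample 2 from Gibco serum, and the SD of these media holds the difference between the sera. The serum RNA is bovine and the loci are human, so that a count on a named copy is a read that matched the sequence at that locus, and not evidence that a human copy was transcribed. How reads that match several copies were placed is not given in the sources used here, and the values of single copies are therefore uncertain. A lower U1 level in a medium can come from fewer carriers or from less U1 per carrier, which cannot be told apart here.

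Counts over miRNAs and small ncRNAs summed to 6679 in StemPRO, the shallowest sample, and to 6867736 in UF-dFBS-1, the deepest. One spike-in normalized count stood for 3.78 to 9.04 reads in FBS, SBI-dFBS and UC-dFBS, for 55.2 and 24.0 reads in the UF-dFBS pair and for 108 reads in StemPRO. A locus with 3 reads, the limit that a count of 0 allows, was thus at 0.332 to 0.794 normalized counts in the first 6 samples, at 0.0543 and 0.125 in the UF-dFBS pair and at 0.0278 in StemPRO. UF-dFBS-2 held only 82513 counts in all. Intervals given below are 95% intervals and cover counting error only. The paper cautions that its spike-ins had the length of miRNAs. It regards the normalization as likely less accurate for other small ncRNAs, whose reads were mostly longer.

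U1 was highest in FBS and in one lot of SBI-dFBS, lower in UC-dFBS and lowest in UF-dFBS and StemPRO. Summed over the 77 loci, the spike-in normalized count was 79.7 in FBS-1 (exact Poisson interval 71.9 to 88.0) and 73.2 in FBS-2 (67.2 to 79.7). It was 115 in SBI-dFBS-1 (108 to 122) and 13.8 in SBI-dFBS-2 (10.3 to 18.1). UC-dFBS-1 and UC-dFBS-2 had 24.5 (20.8 to 28.6) and 29.0 (25.1 to 33.4), and both lay below both FBS samples. UF-dFBS-1 had 0.905 (0.672 to 1.19), UF-dFBS-2 had 3.37 (2.68 to 4.19) and StemPRO had 1.16 (0.963 to 1.38). These sums rest on 386 and 546 reads in FBS, 1037 and 52 in the SBI-dFBS lots, 160 and 198 in UC-dFBS, 50 and 81 in the UF-dFBS pair and 125 in StemPRO. The raw reads therefore span a far smaller range than the normalized values. In raw reads UF-dFBS and StemPRO also lay below FBS, UC-dFBS and SBI-dFBS-1, but SBI-dFBS-2 was within their range. The part of their large spike-in factors in the normalized order was not tested.

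**Figure D1:**
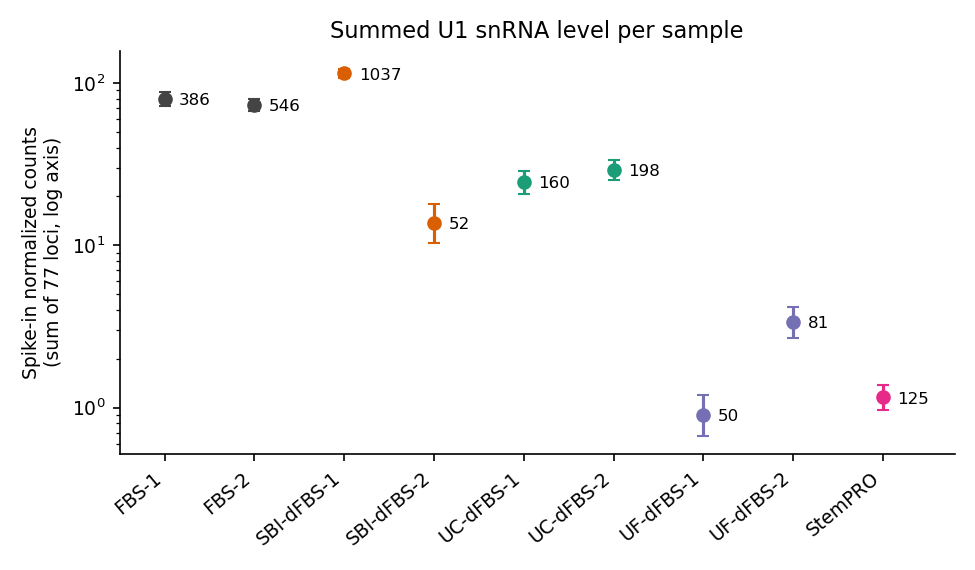
Summed spike-in normalized count of the 77 U1 loci (log axis) in each of the 9 samples, with exact Poisson 95% intervals and the raw U1 reads printed beside each point. FBS-1, FBS-2 and SBI-dFBS-1 lie between 73.2 and 115, UC-dFBS at 24.5 and 29.0, and UF-dFBS and StemPRO between 0.905 and 3.37.

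As means, U1 stood at 76.5 ± 4.56 normalized counts in FBS (SD, n = 2), 64.2 ± 71.3 in SBI-dFBS (SD, n = 2), 26.7 ± 3.21 in UC-dFBS (SD, n = 2) and 2.14 ± 1.74 in UF-dFBS (SD, n = 2). UC-dFBS held 0.350 ± 0.0469 times the FBS level and UF-dFBS 0.0280 ± 0.0229 times, a 35.8-fold lower mean. StemPRO held 1.51% of the FBS mean. Within the Sigma serum, UC-dFBS kept 30.7% and UF-dFBS 1.14% of the FBS level. Within the Gibco serum the shares were 39.6% and 4.60%. The normalized levels of the UF-dFBS samples do not overlap in their Poisson intervals, whereas those of the UC-dFBS samples do. The order of UF-dFBS below the other media holds on the spike-in scale. There the log2 ratio of its mean to that of the 6 other FBS-based samples was -4.71. As a share of all counts the ratio of means reversed, to a log2 value of 0.98. That reversal rests on UF-dFBS-2, which held 0.0982% beside 0.0904% in FBS-2. UF-dFBS-1 held 0.000728%, the lowest share of any sample. Sums over members chosen with results known were not tested.

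Of the 77 loci, 19 had at least 10 reads in at least 2 of the 8 FBS-based samples and entered the tests across loci. These were the 9 gene copies, the pseudogene copies RNU1-11P, RNU1-14P, RNU1-17P and RNU1-18P, and the copies U1.51, U1.58, U1.69, U1.77, U1.83 and U1.84. They held 90 to 157 reads each and 86.8% of all 2635 U1 reads. The other 58 loci held 1 to 29 reads each. Of all 77 loci, 21 had a single read in the whole study, and 21 had the same counts in every sample as another U1 locus. No U1 locus reached 10 reads in a UF-dFBS sample. The 19 loci therefore passed through FBS, SBI-dFBS and UC-dFBS, where U1 was high, and how many of them were lower in UF-dFBS is a description of loci picked for high values and lends no support.

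The leading U1 locus was RNU1-7, a gene copy on the plus strand of chromosome 14 (GRCh37, chr14:35015920-35016083). It had 33 and 29 reads in FBS, 56 and 2 in the SBI-dFBS lots, 13 and 7 in UC-dFBS, 2 and 5 in the UF-dFBS pair and 10 in StemPRO. On the normalized scale these were 6.81 and 3.89 in FBS, 6.19 and 0.529 in the SBI-dFBS lots, 1.99 and 1.03 in UC-dFBS, 0.0362 and 0.208 in the UF-dFBS pair and 0.0926 in StemPRO. On this scale both UF-dFBS samples lay below all 6 other FBS-based samples, and the values of UC-dFBS fell between those of the SBI-dFBS lots. In raw reads SBI-dFBS-2 was not above the UF-dFBS pair. The mean was 0.122 ± 0.122 in UF-dFBS (SD, n = 2) and 3.41 ± 2.67 in the 6 others (SD, n = 6). The means of log2(value + 0.00905) differed by -4.59. The exact two-sided permutation p was 0.0714, the smallest that 2 samples against 6 allow, so that this design cannot reach 0.05. RNU1-7 was taken as the leading locus by its mean over the FBS-based samples, which rests mostly on these 6. It was thus picked for high values in the samples that UF-dFBS was compared with. Its difference and p are a description and lend no support.

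The other gene copies also had their lowest normalized levels in UF-dFBS and StemPRO, except RNU1-9, which had no read in SBI-dFBS-2 either. RNU1-3 (chr1:16993280-16993443, minus strand) had 24 and 25 reads in FBS, 60 and 4 in the SBI-dFBS lots, 9 and 13 in UC-dFBS, 2 and 9 in the UF-dFBS pair and 8 in StemPRO. RNU1-8 (chr14:35025432-35025595, minus strand) had 24 and 25, 64 and 3, 6 and 12, 2 and 6, and 8 reads in the same order of samples. RNU1-7 and RNU1-8 were the gene copies that lay on chromosome 14, and the other 7 lay on chromosome 1. RNU1-2 (chr1:17222475-17222638, plus strand) had 13 and 31 reads in FBS, 61 and 6 in the SBI-dFBS lots, 10 and 13 in UC-dFBS, 3 and 4 in the UF-dFBS pair and 4 in StemPRO. RNU1-5 (chr1:149224058-149224221, minus strand) had 26 and 33 reads in FBS and 5 in each UF-dFBS sample, and RNU1-4 (chr1:17067011-17067174, plus strand) had 24 and 31 reads in FBS and 4 and 7 in the UF-dFBS pair. RNU1-4 and RNU1-7, at 10 reads each, were the U1 loci that reached 10 reads in StemPRO. As all gene copies have the same length, their levels can be compared directly, and the mean over the 8 FBS-based samples ran from 1.23 normalized counts per 100 nt in RNU1-9 to 1.58 in RNU1-7. Within a sample the variance of the 9 gene copies over their mean was 0.500 to 2.22, where counting alone gives about 1, so that an order among neighbouring copies was not resolved.

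RNU1-6 and RNU1-9 had fewer reads than the other gene copies in UF-dFBS and StemPRO, a pattern that was noticed after the values had been seen and was not tested. RNU1-6 (chr1:147511004-147511167, minus strand) had 11 and 32 reads in FBS, 59 and 5 in the SBI-dFBS lots, 6 and 7 in UC-dFBS, 0 and 3 in the UF-dFBS pair and 1 in StemPRO. RNU1-9 (chr1:145969270-145969433, minus strand) had 18 and 24 reads in FBS, 59 and 0 in the SBI-dFBS lots, 5 and 13 in UC-dFBS, 0 in both UF-dFBS samples and 1 in StemPRO. In FBS-2, SBI-dFBS-1 and UC-dFBS-2 both copies sat within or at the edge of the other 7. In the remaining serum samples 1 of them was below the other 7, namely RNU1-6 in FBS-1 (11 reads against 13 to 33), RNU1-9 in UC-dFBS-1 (5 against 6 to 13) and RNU1-9 in SBI-dFBS-2 (0 against 2 to 6), where RNU1-6 had 5. In UF-dFBS-1, UF-dFBS-2 and StemPRO both were below all 7, which had 2 to 5, 4 to 9 and 4 to 10 reads. Together they held 15.2%, 22.2%, 23.0%, 19.2%, 14.9% and 22.2% of the gene copy reads in FBS-1, FBS-2, the SBI-dFBS lots and the UC-dFBS pair. The share was 0 of 21 reads in UF-dFBS-1, where a count of 0 allows up to 14.3%, and 6.67% in UF-dFBS-2 (2.29 to 17.9) and 3.64% in StemPRO (1.00 to 12.3). The intervals of UF-dFBS-2 and of FBS-2 overlap slightly. That of StemPRO lies below those of FBS-2, SBI-dFBS-1 and UC-dFBS-2 and overlaps those of FBS-1, SBI-dFBS-2 and UC-dFBS-1. As the copies were picked for low values in UF-dFBS and StemPRO, these intervals are a description and lend no support.

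**Figure D2:**
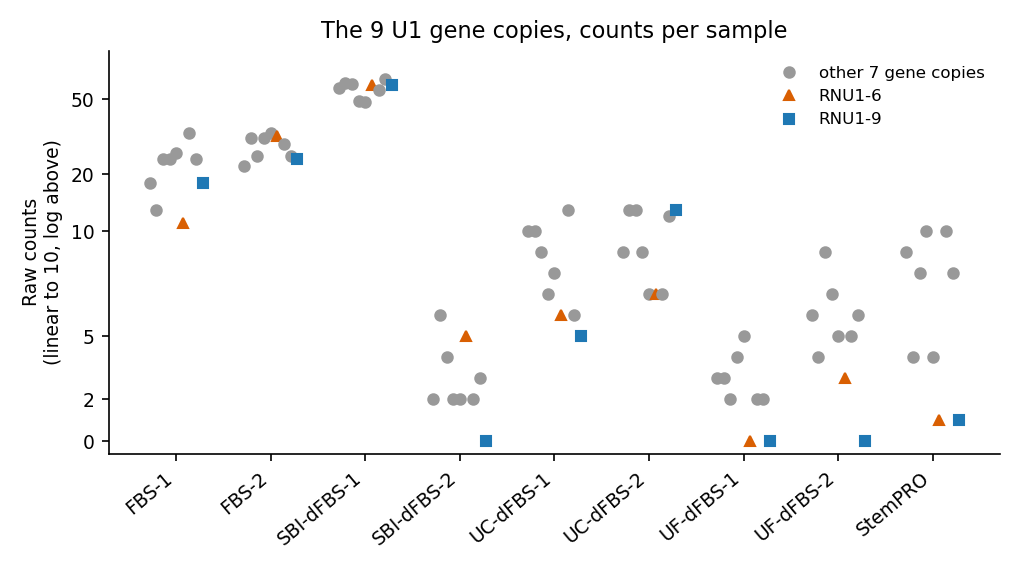
Raw reads of the 9 U1 gene copies in each sample, on an axis that is linear to 10 and logarithmic above, with RNU1-6 as triangles, RNU1-9 as squares and the other 7 copies as circles, side by side in order of name. RNU1-6 and RNU1-9 lie among the others in FBS-2 and SBI-dFBS-1 and below them in UF-dFBS and StemPRO.

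Among the pseudogene copies, RNU1-11P led (chr6:13214288-13214451, plus strand), with 17 and 26 reads in FBS, 47 and 0 in the SBI-dFBS lots, 3 and 13 in UC-dFBS, 0 and 4 in the UF-dFBS pair and 2 in StemPRO. RNU1-17P (chr5:180156586-180156737, plus strand) had 18 and 24 reads in FBS, 42 and 0 in the SBI-dFBS lots, 7 in each UC-dFBS sample and none in UF-dFBS or StemPRO. RNU1-18P (chr6:122532794-122532957, plus strand) had 15 and 14 reads in FBS, none in UF-dFBS and 1 in StemPRO, and RNU1-14P (chr7:53433751-53433902, plus strand) had 12 and 21 reads in FBS, 0 and 1 in the UF-dFBS pair and none in StemPRO. Per length these 4 copies lay below the lowest gene copy, RNU1-9 at 1.23 normalized counts per 100 nt, with 1.12 for both RNU1-11P and RNU1-17P, 1.06 for RNU1-14P and 0.986 for RNU1-18P. After them the level dropped to 0.239 normalized counts per 100 nt in RNU1-10P, with 25 reads in the study, and to 0.178 in RNU1-22P, with 16. RNU1-10P (chr1:143647014-143647177, minus strand) kept 3 and 1 reads in the UF-dFBS pair beside 3 and 3 in FBS.

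Among the copies named U1 with a number, U1.77 (chr1:148604908-148605072, minus strand) had 23 and 40 reads in FBS, 48 and 1 in the SBI-dFBS lots, 7 and 14 in UC-dFBS, 3 and 5 in the UF-dFBS pair and 6 in StemPRO. In FBS-2 it was above all 9 gene copies, which had 22 to 33 reads, and in SBI-dFBS-2 it was below 8 of them. At 1.44 normalized counts per 100 nt its level ranked between those of RNU1-8 and RNU1-2. U1.83 (chr1:148241465-148241628, plus strand) had 15 and 22 reads in FBS, 46 and 3 in the SBI-dFBS lots, 7 and 8 in UC-dFBS and none in UF-dFBS or StemPRO. U1.69 (chr1:148766938-148767102, minus strand) and U1.51 (chrX:132372685-132372844, minus strand) were also at 0 in UF-dFBS and StemPRO, against 12 and 28 and 15 and 14 reads in FBS. U1.84 (chr7:141427784-141427948, plus strand) kept 1 read in each UF-dFBS sample and in StemPRO, and U1.58 (chr5:178311716-178311880, plus strand) had 10 and 23 reads in FBS, 2 and 0 in the UF-dFBS pair and 5 in StemPRO.

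Of the 19 loci, 6 were at 0 in both UF-dFBS samples. Against a floor of 3 reads per library, their FBS means were at least 38.7-fold higher for RNU1-9 and RNU1-17P, at least 34.8-fold for U1.69, at least 33.7-fold for U1.83 and at least 27.8-fold for RNU1-18P and U1.51. In all, 9 of the 19 loci had no read in UF-dFBS-1, 7 had none in UF-dFBS-2, 6 in SBI-dFBS-2 and 5 in StemPRO, and none was at 0 in FBS, UC-dFBS or SBI-dFBS-1.

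**Figure D3:**
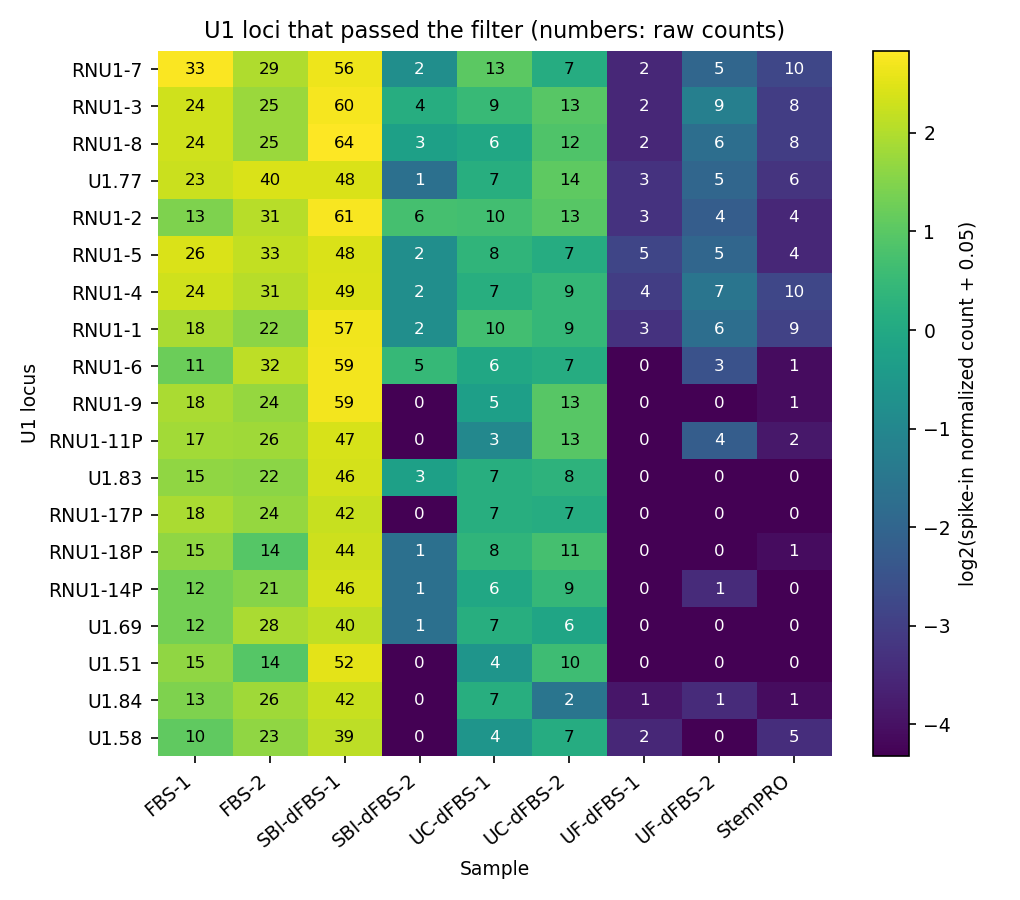
The 19 U1 loci with at least 10 reads in at least 2 FBS-based samples, one per row in order of their mean level, in the 9 samples (columns). Colour is log2(spike-in normalized count + 0.05) and the printed numbers are raw reads, from 64 for RNU1-8 in SBI-dFBS-1 down to 0, with 9 loci at 0 in UF-dFBS-1 and 7 at 0 in its partner UF-dFBS-2.

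The tests asked whether single loci differed between a depleted medium and FBS. In the edgeR quasi-likelihood fit of the 8 FBS-based samples, with Benjamini-Hochberg adjustment over all 363 loci tested, no U1 locus passed the threshold of 0.05 in UF-dFBS versus FBS, and percent called over all loci was 0 as well. All 19 U1 loci had log2 differences below 0, from -4.33 (SE 1.70) in RNU1-3 to -8.68 (SE 2.43) in RNU1-9, with a median of -5.69 beside -3.63 over all loci. Their adjusted p-values were 0.0824 to 0.157. At an unadjusted p under 0.05, 19 of 19 U1 loci were lower, against 108 of 363 loci or 29.8%. With DESeq2 and the same spike-in factors, 19 of 19 U1 loci were called lower, against 37.2% of all loci, and without the filter edgeR called 9 of 73 lower, against 3.7%. When the serum entered as a block in the 6 samples of FBS, UC-dFBS and UF-dFBS, which pairs each UF-dFBS sample with the FBS of the same serum, edgeR called 19 of 19 U1 loci lower, against 66.1% of 322 loci, with adjusted p-values of 2.87e-08 to 1.39e-05. Over all settings tried, single U1 loci had adjusted p-values of 2.87e-08 to 0.988. In the blocked fit the log2 difference of RNU1-7 was -5.55 (SE 0.97). Scaling by the libraries themselves moved the values closer to 0. With TMM the median was -1.58 for U1 and -0.57 over all loci, 0 U1 loci were called, and 2 of 19 lay above 0, RNU1-1 and RNU1-3, while DESeq2's own size factors put 4 of 19 above 0, RNU1-1, RNU1-3, RNU1-4 and RNU1-8. Both UF-dFBS samples lay below both FBS samples in 19 of 19 U1 loci and in 50.1% of all loci tested. No U1 locus reached 10 reads in UF-dFBS, so the counts of 19 of 19 describe loci picked for high values elsewhere and lend no support. A read can also match several copies, which are thus not independent. On simulated data with the spread as fitted, the first fit found 10 of 181 loci changed by 6 on the log2 scale. Its 0 calls therefore could not decide whether U1 differed.

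UC-dFBS was lower than FBS in the values, but no U1 locus was called. In the same edgeR fit 0 of 19 U1 loci passed, with 0 also among all 363 loci. On simulated data with the spread as fitted, this fit found 0 of 181 loci changed by 6 on the log2 scale. It therefore could not decide whether U1 differed. The log2 differences of the U1 loci were -0.80 (SE 1.52) in RNU1-18P to -2.17 (SE 1.76) in U1.84, with a median of -1.63 beside -0.87 over all loci, and an adjusted p of 0.989 for each. With TMM the medians were -0.97 and 0.14. An unadjusted p under 0.05 was reached by 0 of 19 U1 loci and 3.31% of all loci, and DESeq2 with the spike-in factors called none. With the serum as block 0 U1 loci were called, 8 of 19 had an unadjusted p under 0.05, and 2.48% of the 322 loci were called. Both UC-dFBS samples lay below both FBS samples in 19 of 19 U1 loci, against 19.3% of all loci. All 19 met the filter in FBS alone, with at least 10 reads in FBS-1 and 14 in FBS-2. Their count is thus a description of loci picked partly for high FBS values and lends no support. The copies are also not independent, since a read can match several of them.

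SBI-dFBS gave no U1 call either, with 0 of 19 loci and 0 of all 363 loci past the threshold, an unadjusted p under 0.05 in 0 of 19 U1 loci and 1.1% of all loci, and none by DESeq2 with the spike-in factors. The median log2 difference of the U1 loci was -0.09 and that of all loci 1.11, and with TMM the medians were -1.62 and -0.38. Both SBI-dFBS samples were below both FBS samples in 0 of 19 U1 loci, against 5.23% of all loci. The SBI-dFBS fit also found 0 of 181 simulated loci changed by 6 on the log2 scale, so it could not decide either.

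The mean of SBI-dFBS hides a gap between its lots. U1 was 8.33-fold higher in SBI-dFBS-1 than in SBI-dFBS-2, whose Poisson intervals lie far apart. By kind of copy, the first and the second lot had 56.7 and 6.88 normalized counts on the gene copies, 22.9 and 2.12 on the pseudogene copies and 35.1 and 4.77 on the U1.number copies. The gap was larger in the read-rich loci, with a ratio of 12.1 for the sum of the 19 tested loci and of 1.71 for the sum of the 58 others, at 8.62 and 5.03 normalized counts. RNU1-8 had 64 reads in the first lot and 3 in the second, RNU1-17P had 42 and 0, and U1.51 had 52 and 0. With values under 3 reads set to 3 reads, all 19 tested U1 loci were at least 4-fold lower in SBI-dFBS-2, by 4.25-fold to 8.91-fold, against 22 of 363 loci or 6.06%. These loci entered the test through a minimum of 10 reads, which all of them reached in the first lot and none in the second, so that their count is a description of loci picked partly for high values in SBI-dFBS-1. The fold of 4 was chosen after the sums had been seen. Over all loci the median ratio of the first lot to the second was 0.326, so that most loci were higher in the lot in which U1 was lower. Of the other snRNA families, U11 was also higher in the first lot, with a ratio of 2.26. The ratio was 0.948 for U2, 1.15 for U5, 1.01 for U6 and 1.18 for U7, and U12 at 0.495 and U4 at 0.0213 were lower in the first lot. There is 1 sample per lot, and the difference has no replicate check.

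Gene and pseudogene copies stood at like fractions of their FBS level in the depleted media. UF-dFBS stood at 3.08% of FBS in the gene copies, 2.78% in the pseudogene copies and 2.41% in the U1.number copies. UC-dFBS stood at 33.5%, 41.7% and 33.5%, and StemPRO at 1.39%, 0.863% and 2.04%. The gene copies, 9 of 77 loci, took 42.0% to 55.6% of the U1 reads of a sample. The pseudogene copies took 18.7% in FBS-1 (Wilson interval 15.1 to 22.8) and 17.8% in FBS-2 (14.8 to 21.2), 19.96% and 15.4% in the SBI-dFBS lots, 18.8% and 24.2% in UC-dFBS, and 12.0% (5.62 to 23.8) and 19.8% (12.5 to 29.7) in UF-dFBS. Over these 8 samples the mean was 18.3% ± 3.57 (SD, n = 8). The intervals of UF-dFBS hold the values of both FBS samples, so that a shift of the share in UF-dFBS was not detectable at this depth. StemPRO had the lowest share, 10.4% (6.18 to 17.0), which overlaps the intervals of FBS and lies below that of SBI-dFBS-1 (17.6 to 22.5).

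**Figure D4:**
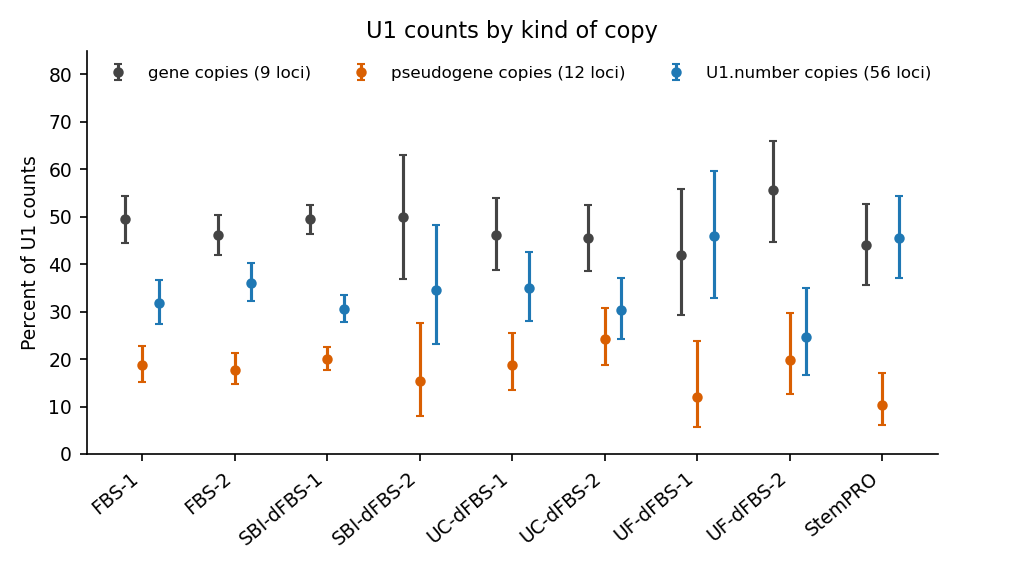
Percent of the U1 reads of each sample on gene copies (9 loci), pseudogene copies (12 loci) and U1.number copies (56 loci), with Wilson 95% intervals. Gene copies lie between 42.0% and 55.6% in all 9 samples and pseudogene copies between 10.4% and 24.2%.

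The split between the 19 read-rich loci and the 58 others differed between samples. The 19 loci held 88.3% and 89.7% of the U1 reads in FBS, 92.5% in SBI-dFBS-1, 83.8% and 89.4% in UC-dFBS, 63.5% in SBI-dFBS-2, 54.0% and 69.1% in the UF-dFBS pair and 56.0% in StemPRO. The intervals of the last 4, of which the highest bound is 78.1%, lie below those of FBS, of which the lowest is 84.8%. These loci were picked for high counts in the first group of samples, so the direction is in part set by the choice. The 58 others had 45 and 56 reads in FBS, 78 and 19 in the SBI-dFBS lots, 26 and 21 in UC-dFBS, 23 and 25 in the UF-dFBS pair and 55 in StemPRO. Their normalized level was 8.67% of FBS in UF-dFBS, compared with 2.07% for the 19 loci. U1.88 (chr1:147994146-147994313, plus strand), named after its values had been seen, had 3 and 2 reads in FBS, 3 and 3 in the UF-dFBS pair and 9 in StemPRO, and U1.82 (chr1:149194106-149194269, minus strand), named likewise, had 3 and 5, 2 and 1, and 8. Loci on chromosome 1 took 54.1% to 59.6% of the U1 reads in FBS, SBI-dFBS and UC-dFBS and 66.0%, 71.6% and 66.4% in the UF-dFBS pair and StemPRO.

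The supplier comparison asked whether U1 differed between Sigma and Gibco serum across the 3 media made from both. The summed level in Sigma serum was 1.09 times that in Gibco serum in FBS, 0.843 times after ultracentrifugation and 0.268 times after ultrafiltration. In the edgeR fit of these 6 samples with the medium as a term, 10 U1 loci had enough reads to be tested. None was called, and none had an unadjusted p under 0.05, while 62.1% of the 280 loci tested were called higher in Sigma serum and 0 lower. DESeq2 with the spike-in factors also called no U1 locus. The U1 log2 differences ran from -1.42 (SE 0.82) in RNU1-11P to 0.19 (SE 0.87) in RNU1-18P, with a median of -0.58 beside 3.13 over all loci. This call depends on the scaling, since TMM called 8 of 10 U1 loci lower in Sigma serum, against 21.4% of all loci, and DESeq2 with its own size factors called 10 of 10, against 20.4%. TMM moves the median over all loci from 3.13 to -0.29. Relative to the other small ncRNAs the tested U1 loci were thus lower in Sigma serum, and relative to the spike-ins none was called. The filter asked for at least 10 reads in at least 3 of the 6 samples. RNU1-3, RNU1-8, RNU1-9, RNU1-11P, RNU1-18P, U1.51 and U1.77 met it through both FBS samples and UC-dFBS-2, a Gibco sample. RNU1-1 and RNU1-7 met it through UC-dFBS-1 instead, and RNU1-2 through both. The tested loci were thus picked partly for high Gibco values. The calls of 8 and 10 loci are a description and lend no support.

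U1 works beside the other spliceosomal snRNAs. U2 binds the branch point, and U4, U5 and U6 join together as a particle. U11 and U12 take the places of U1 and U2 on the rare minor introns. U7 stands apart from the spliceosome and processes histone transcripts. Of the loci of these families, 11 of U2, 10 of U4, 1 of U11 and 1 of U12 entered the tests of the media. As for U1, none was called in the edgeR fit of the 8 samples, which called 0 of 363 loci in each depleted medium. The fit with the serum as block called 66.1% of 322 loci lower in UF-dFBS and was not read for these families. The median log2 difference of UF-dFBS from FBS was -6.29 for U2 and -0.12 for U4, beside -5.69 for U1. In the sums, UF-dFBS held 1.14% of the FBS level of U1 in Sigma serum and 4.60% in Gibco serum, 2.56% and 1.94% of U2, 2.92% and 1.35% of U7, 2.11% and 2.31% of U12, and 0.224% and 0.546% of U11. U5 stood at 21.6% and 18.6%, U6 at 25.7% and 28.4%, and U4 at 92.9% and 109%. In UC-dFBS, U1 had the lowest shares of the 8 families in both sera, 30.7% and 39.6%, with U6 next at 43.7% in Gibco serum and U2 next at 41.9% in Sigma serum. Differences between families were not tested.

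**Figure D5:**
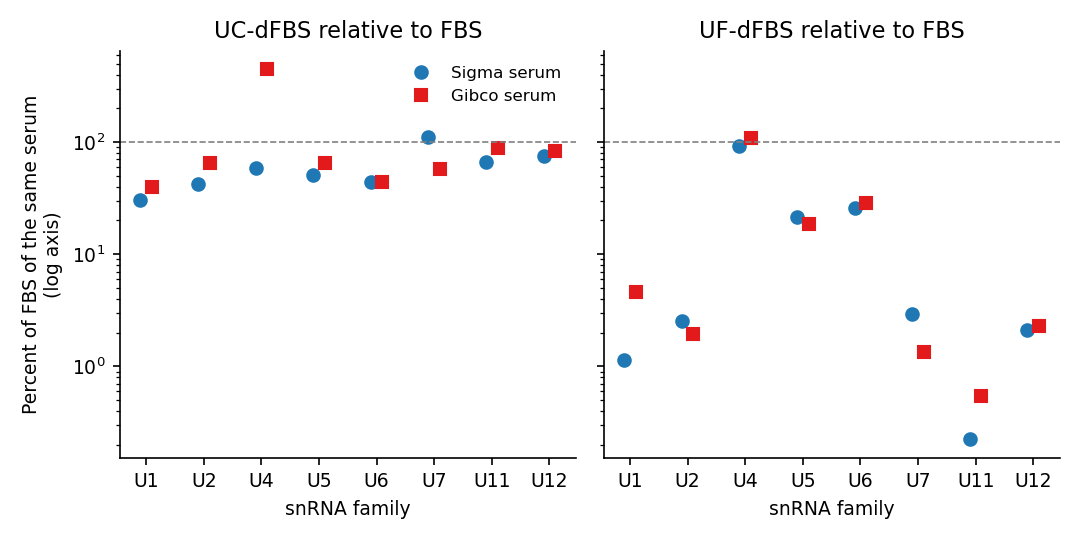
Summed spike-in normalized level of each snRNA family in UC-dFBS (left) and UF-dFBS (right) as a percent of FBS of the same serum, on a log axis, with Sigma serum as circles, Gibco serum as squares and a dashed line at 100%. In UF-dFBS, U1 lies at 1.14% and 4.60%, near U2, U7 and U12, whereas U4 lies at 92.9% and 109%.

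The families whose sums followed U1 most closely over the 9 samples were U2 and U11, both with Spearman's rho 0.767, and U7 with 0.717, and U4 was least alike with 0.100. These are descriptions over samples that share sera and spike-in factors. The share of U1 in all snRNA reads ranged widely, at 7.37% and 17.9% in FBS, 11.4% and 0.638% in the SBI-dFBS lots, 3.998% and 9.36% in UC-dFBS, 0.171% and 19.6% in the UF-dFBS pair and 26.0% in StemPRO. U4 reads were many where this share was low, with 2699 and 51 reads in FBS, 307 and 6008 in the SBI-dFBS lots, 2157 and 208 in UC-dFBS, 28604 and 179 in the UF-dFBS pair and 4 in StemPRO. In the supplier fit U4 was called higher in Sigma serum in 10 of 10 loci, with a median log2 difference of 5.34. The share of U1 in snRNA reads was higher in FBS-2 and UF-dFBS-2 than in FBS-1 and UF-dFBS-1, where U4 reads were abundant. The spike-in normalized U1 level of FBS-1 and FBS-2 was within overlapping intervals. That of UF-dFBS-2 was itself higher, at 3.37 against 0.905 in UF-dFBS-1, with intervals apart. The part of U4 in these shares was not tested.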

How the data were processed

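Per the labels and the study's methods, EVs and RNA were isolated from media with the exoRNeasy kit, and libraries were made with the QIAseq miRNA kit, which adds unique molecular indices. The authors trimmed reads with cutadapt 1.11, collapsed them by insert and index, removed reads on spike-ins, ribosomal and mitochondrial RNA, and mapped the rest with Bowtie2 2.2.2 to miRBase 20 (perfect matches) and to human GRCh37 with at most 1 mismatch in the first 32 bases. The deposited counts are reads per locus, not normalized. The second deposited table holds a signal, the spike-in normalized count, which the authors made by dividing counts by 1 factor per sample from the external spike-ins, and count over signal was constant in each sample.

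The 1361 loci of both tables were joined by name, type and position, since 26 names occur more than once. Total counts include the 425 miRNAs. Sums, shares and Wilson or exact Poisson intervals were computed in python 3.11.15 with scipy 1.17.1. Loci were tested with edgeR 4.0.16 (quasi-likelihood F-test) in R 4.3.3, with library sizes from the spike-in factors and without TMM, adjusted p 0.05, and loci with at least 10 counts in at least 2 of 8 samples (medium) or 3 of 6 (supplier). SE was taken from the log2 difference and F. Alternatives were DESeq2 1.42.0, TMM, no filter, identical loci counted once, the serum as block and each sample left out. StemPRO was not tested. Nothing states that samples of a medium are more than single preparations, and p-values measure the spread between them.

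The pairing by serum comes from the labels, which give the same supplier to same-numbered samples of FBS, UC-dFBS and UF-dFBS. The differences between sample 1 and sample 2 correlated between these media across 363 loci (Pearson's r 0.540 to 0.723), and negatively with SBI-dFBS. On simulated data with the spread as fitted, the UF-dFBS fit found 0 of 181 loci changed by 2 on the log2 scale (363 loci). It found 10 of 181 changed by 6. The UC-dFBS and SBI-dFBS fits each found 0 of 181 changed by 2 and 0 of 181 changed by 6. The supplier fit found 53 of 140 changed by 2 (280 loci).

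The members, lists and tests were chosen with earlier results of these data known. Loci were named where they were among the 6 highest in their name class by mean normalized count over the 8 FBS-based samples, passed a test, reached 10 counts in StemPRO or belonged to a count of 5 or fewer, and others are marked. Sequences of the U1 loci were not used here.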

Additional observations from a re-analysis of the deposited data

Results flagged for a closer look

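The ratio of Sigma to Gibco serum changed sign between media, with 1 sample per serum and medium, and the difference between the media was not tested. For the U1 sum, the log2 ratio of Sigma over Gibco was 0.12 in FBS, -0.25 in UC-dFBS and -1.90 in UF-dFBS. The gene copies gave 0.22, -0.22 and -2.30, and the pseudogene copies gave 0.19, -0.62 and -2.62. RNU1-7 gave 0.81 in FBS, 0.95 in UC-dFBS and -2.52 in UF-dFBS. The UF-dFBS values rest on 50 U1 reads in Sigma serum and 81 in Gibco serum, with spike-in factors of 55.2 and 24.0, whose part in the ratio was not tested.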

How the results depend on the processing

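Of 100 alternative values, 89 stayed within the limits set for them, 9 moved and 2 reversed, and the causes were not tested. For UF-dFBS versus FBS, 0 U1 loci were called, against 19 with DESeq2 and spike-in factors, 9 of 73 without a filter (3.7% of all loci) and 19 with the serum as replicate block, and 0 with TMM or DESeq2's own size factors. The replicate block changed no other call. The fit of the same 6 samples without the block, chosen after seeing the data, called 0. For Sigma versus Gibco, 0 became 8 with TMM and 10 with DESeq2's own size factors, among loci picked partly for high Gibco values. UF-dFBS relative to the other FBS-based samples, -4.71 as a log2 ratio of U1 sums, became -2.60 on raw counts. It reversed to 0.98 as a share of all counts and 0.23 as a share of snRNA counts. Both reversals rest on UF-dFBS-2, while UF-dFBS-1 had the lowest share of any sample on both. Sigma relative to Gibco, -0.67, became -4.19 and -3.12 on these shares. The pseudogene share of 18.3% became 52.0% when U1.number copies were added.

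Leaving out 1 sample at a time gave 0 U1 calls between suppliers, of 1 to 10 loci tested. Between media it gave 0 of 19 where the sample left out was of neither medium compared. The log2 ratio of sums for UF-dFBS ran from -5.95 (without UF-dFBS-2) to -4.05 (without UF-dFBS-1), and the pseudogene share from 17.5% to 19.2%. Leaving out 1 medium at a time gave -1.07 to -0.06 for Sigma relative to Gibco, the latter without UF-dFBS. For RNU1-7, a locus picked for high values outside UF-dFBS, the difference ran from -5.72 (without UF-dFBS-2) to -3.46 (without UF-dFBS-1). Without 1 of the 6 other samples its exact permutation p was 0.0952, the smallest that the samples left allow. TMM moved the median log2 difference over all loci from 1.11 to -0.38 in SBI-dFBS, -0.87 to 0.14 in UC-dFBS and -3.63 to -0.57 in UF-dFBS. Few reads limit single loci in UF-dFBS, where none exceeded 9 reads, and in SBI-dFBS-2, where none exceeded 6.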

Other observations

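The share of U1 in all counts was highest in StemPRO, at 1.87% (Wilson interval 1.57 to 2.23), where 125 of 6679 counts were on U1 loci. It was 0.0982% in UF-dFBS-2 and 0.0904% in FBS-2, and between 0.000728% and 0.0235% in the other 6 samples. In StemPRO 38 of the 77 U1 loci had at least 1 read, of which 24 were U1.number copies, 9 gene copies and 5 pseudogene copies.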
